A study of Rattus norvegicus with 4 samples.

Results

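The genes described here encode 4 receptors of the cell surface, the vasopressin V1a receptor (Avpr1a), the thrombin receptor (F2r), fibroblast growth factor receptor 3 (Fgfr3) and the Wnt co-receptor Lrp5. They are 4 of the 958 rat genes named on a spotted cDNA array, and each was represented by 1 probe of 1936. The set was chosen by the low ratios that these genes showed in the same hybridisations, so their values are a description and were not tested. Male Sprague-Dawley rats received alpha-naphthylisothiocyanate (ANIT), a toxicant that injures bile duct cells and stops bile flow, as 1 intraperitoneal injection of 75 mg/kg in olive oil, and controls received olive oil alone. Livers were taken 18 h later, RNA of 3 rats was pooled for each treatment, and poly(A) RNA of the pair of pools was hybridised to 4 arrays. ANIT was labelled with Cy5 on arrays 1 and 3 and with Cy3 on arrays 2 and 4. The arrays repeat the hybridisation of a single pair of pools, so each treatment is represented by 1 pool and cannot be tested.

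The table holds a ratio of 2 channels for each probe and no level, so the liver could not be checked against marker levels, and no gene's abundance is known. The values are read as log2 of ANIT over olive oil on every array. That direction is the likely one, since the titles name ANIT and ANIT is the second channel of every sample. The table states neither direction nor log base, and with the other direction every sign would turn. Unless said otherwise, the median of all probes was subtracted from each array. The mean of a gene gives equal weight to both dye orientations. The error is the SD between the 2 arrays of one orientation, pooled over both orientations (n = 4 arrays). It covers repeated hybridisation with the same dye alone, and leaves out the difference between orientations. Pearson's r across probes was 0.958 to 0.979 between arrays of the same orientation and -0.383 to -0.370 between opposite ones.

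Avpr1a and F2r encode receptors that span the membrane many times and act through G proteins. Vasopressin bound to the V1a receptor of hepatocytes activates Gq and phospholipase C, releases calcium from internal stores and drives glycogen breakdown. The thrombin receptor is switched on when thrombin cuts its outer end and exposes a tethered ligand, and in liver it is known mainly from stellate, endothelial and other non-parenchymal cells. Fgfr3 encodes a receptor tyrosine kinase that binds fibroblast growth factors together with heparan sulphate and signals through the MAP kinase cascade. Lrp5 belongs to the LDL receptor family and joins Frizzled proteins in binding Wnt, which stabilises beta-catenin. In liver, beta-catenin activity marks hepatocytes around the central vein. In a whole-liver pool, fewer cells of a type and less RNA per cell cannot be told apart.

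Promoter sequences are shown so that the start regions of genes from different receptor classes can be set side by side. The 4 genes were chosen for their low ratios, so lying low together is no sign of shared control. The RefSeq promoter table of the rat build GRCr8 matched 3 of the 4 genes, each with 250 bases before and 50 bases after the gene start. They lie at chr7:59999493-59999792 on the plus strand for Avpr1a, at chr2:28620530-28620829 on the minus strand for F2r, and at chr14:81227160-81227459 on the minus strand for Fgfr3. They are printed 5′ to 3′ along the gene, and capitals mark every match, on either strand, to any of 6 short motifs.
Avpr1a: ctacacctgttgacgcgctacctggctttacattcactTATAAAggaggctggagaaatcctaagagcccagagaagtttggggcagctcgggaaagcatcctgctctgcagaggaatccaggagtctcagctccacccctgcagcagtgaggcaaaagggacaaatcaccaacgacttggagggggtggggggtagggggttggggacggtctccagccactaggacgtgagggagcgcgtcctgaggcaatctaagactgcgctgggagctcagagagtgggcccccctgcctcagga
F2r: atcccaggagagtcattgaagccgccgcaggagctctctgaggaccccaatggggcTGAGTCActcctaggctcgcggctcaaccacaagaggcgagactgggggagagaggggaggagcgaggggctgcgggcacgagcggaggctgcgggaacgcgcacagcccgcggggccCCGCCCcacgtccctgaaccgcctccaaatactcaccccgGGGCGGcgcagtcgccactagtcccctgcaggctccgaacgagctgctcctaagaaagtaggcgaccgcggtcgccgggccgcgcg
Fgfr3: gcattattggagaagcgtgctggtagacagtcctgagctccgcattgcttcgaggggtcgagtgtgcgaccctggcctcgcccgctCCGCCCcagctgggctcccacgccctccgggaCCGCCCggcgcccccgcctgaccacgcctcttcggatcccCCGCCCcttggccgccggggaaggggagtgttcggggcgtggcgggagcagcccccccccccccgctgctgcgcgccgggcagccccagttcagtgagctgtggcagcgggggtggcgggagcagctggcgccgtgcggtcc

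The motifs searched were the TATA box (TATAAA), the GC box (GGGCGG), and sites named for STAT (TTCNNNGAA), AP-1 (TGANTCA), C/EBP (TTGCNNAA) and TCF/LEF (CTTTGAT). The Avpr1a window held 1 match, to the TATA box letters, beginning 212 bases before the gene start. The F2r window held 2 GC boxes, beginning 76 and 36 bases before the start, and 1 AP-1 match at 194 bases. The Fgfr3 window held 3 GC boxes, at 164, 132 and 92 bases. Among 33469 rat promoters of the same length, 33.1% held a GC box, 14.2% the TATA box letters, 10.6% the C/EBP, 8.87% the STAT, 7.33% the AP-1 and 3.63% the TCF/LEF letters. No match overlapped another. Fgfr3 and F2r had GC-rich windows with many CG dinucleotides (74.7% and 69.7% G or C, 31 CG each), above the upper quartile of all promoters (60.3% and 19). Avpr1a had 58.7% and 9 CG, against medians of 51.7% and 7. These matches are descriptions of letters, and none is shown to be a site that acts here.

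Fgfr3 had the lowest mean of the 4 genes and ranked 3rd from the bottom of all 958 by that mean, although Avpr1a was lower on arrays 1 and 3. As deposited, its log2 ratio was -1.62, -1.60, -1.52 and -1.33 on arrays 1 to 4. All arrays therefore lay close together, whichever dye carried ANIT. Centred on the array medians, the same probe had -1.09 and -0.99 with ANIT in Cy5 and -2.45 and -2.16 with ANIT in Cy3. Its mean centred ratio was -1.67 ± 0.16, or 3.19-fold lower in the ANIT pool. Centring thus set apart orientations that had agreed, because the medians of arrays 1 and 3 (-0.53 each) lay far from those of arrays 2 and 4 (0.85 and 0.83).

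Avpr1a, the hepatocyte receptor for vasopressin, ranked 5th from the bottom. Its deposited log2 ratio was -1.78 and -1.55 with ANIT in Cy5 and -1.34 and -0.78 with ANIT in Cy3. The value of array 4 was the smallest in size, and the orientations did not overlap. After centring, the values were -1.25, -2.19, -1.02 and -1.61 on arrays 1 to 4. The mean centred ratio was -1.52 ± 0.31 (2.86-fold lower). That SD was the 11th largest of the 958 genes, against a median of 0.068 and a 95th percentile of 0.18 over all genes, so that Avpr1a was the least repeatable of the 4.

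F2r, the thrombin receptor gene, ranked 10th from the bottom and close to the 2-fold limit. As deposited it had -1.16 and -1.28 with ANIT in Cy5, and -0.71 and -0.48 with ANIT in Cy3. Every array was below 0, and the Cy5 arrays lay below the Cy3 arrays. Centring turned that order round, with -0.63 and -0.75 on arrays 1 and 3 against -1.55 and -1.30 on arrays 2 and 4. The mean was -1.06 ± 0.14 (2.08-fold lower), which lies within 1 SD of 2-fold. Without centring it was -0.91 and without array 2 it was -0.996, both under 2-fold.

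Lrp5, the Wnt co-receptor gene, was lower by less than 2-fold in the mean over both orientations. As deposited it had -0.97 and -0.89 with ANIT in Cy5 and -0.41 and -0.34 with ANIT in Cy3. The centred values were -0.44 and -0.35 with Cy5, and -1.26 and -1.17 with Cy3. All arrays were below 0 on either scale, and arrays of one orientation agreed closely. The mean of -0.81 ± 0.061 (1.75-fold lower) ranked 15th from the bottom. With ANIT in Cy3 alone it had -1.22 (2.32-fold lower), with ANIT in Cy5 alone -0.40, and read as natural logs it had -1.16 (2.24-fold lower), so that its side of the 2-fold limit depended on the orientation and on the unstated log base. By the order of mean ratios, Rab25 (-0.82) stood just below it and Il2rb (-0.72) just above.

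**Figure D1:**
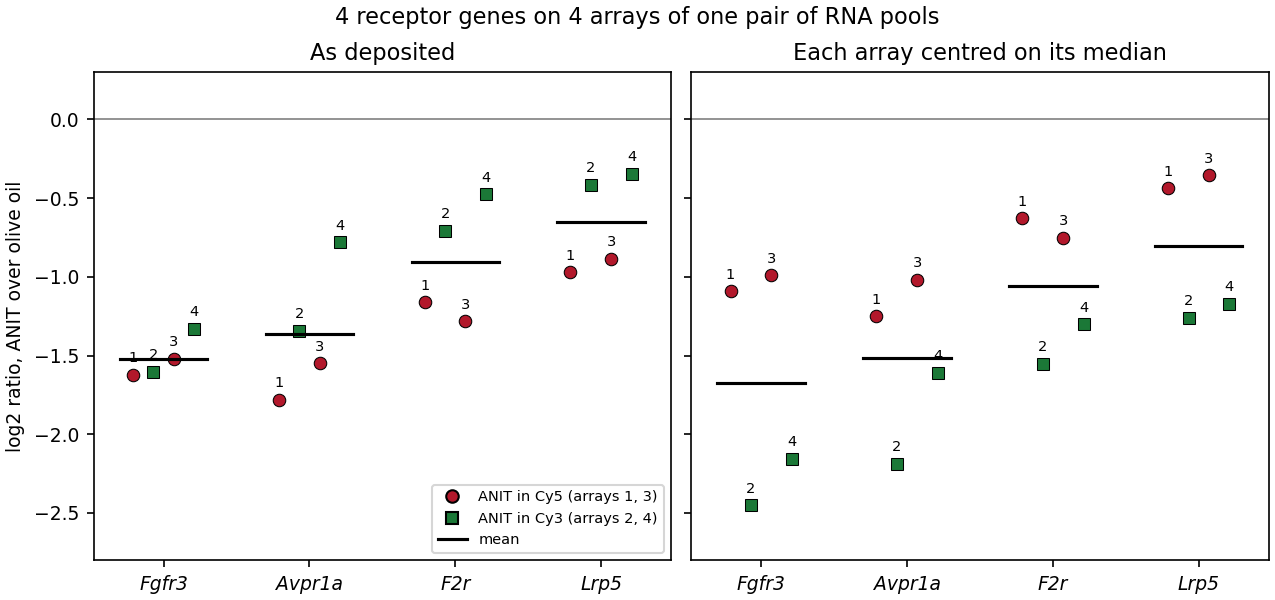
Log2 ratio of ANIT over olive oil (y axis) for the 4 receptor genes (x axis) on each numbered array, as deposited on the left and centred on each array's median on the right; circles have ANIT in Cy5, squares in Cy3, and bars are means. All 16 points of each panel lie below 0; the Fgfr3 points lie close together as deposited (-1.62 to -1.33) and split by dye after centring (-0.99 to -2.45).

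Counting a gene as lower where its mean centred log2 ratio was -1 or below and every array was below 0, Fgfr3, Avpr1a and F2r were counted and Lrp5 was not. Over all named genes this rule counted 11 of 958 as lower (1.15%) and its mirror 12 of 958 as higher (1.25%). As the 4 genes were chosen on these ratios, nothing is read from 3 of 4 against that share. Just inside the limit were F2r and Acsl1 (-1.06 each), and just outside it Gckr (-0.90) and Slc28a2 (-0.83).

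Differences between 2 of these genes on one array do not depend on where that array is centred. Fgfr3 lay below Lrp5 on 4 of 4 arrays, by -0.87 ± 0.10, and below F2r on 4 of 4, since F2r minus Fgfr3 was 0.61 ± 0.11. Both gaps changed with the dye of ANIT, which these SDs leave out. Fgfr3 minus Lrp5 was -0.65 and -0.64 on arrays 1 and 3 but -1.19 and -0.98 on arrays 2 and 4. F2r minus Fgfr3 was 0.46 and 0.24 on arrays 1 and 3 but 0.90 and 0.85 on arrays 2 and 4. Avpr1a lay below Lrp5 (-0.71 ± 0.26) and below F2r (-0.46 ± 0.24) on 4 of 4 arrays. F2r lay below Lrp5 on 4 of 4 arrays too, by -0.25 ± 0.13. Avpr1a and Fgfr3 had no stable order. Their difference was -0.16 and -0.028 on arrays 1 and 3 but 0.26 and 0.55 on arrays 2 and 4, and its mean of 0.16 equalled its SD of 0.16.

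How far F2r and Lrp5 stood out on an array depended strongly on the dye of ANIT, while Avpr1a and Fgfr3 ranked low with either dye. Avpr1a was among the lowest 22 of the 1936 probes on all arrays, ranking 10, 9, 22 and 13 from the bottom on arrays 1 to 4. Fgfr3 ranked 7 on arrays 2 and 4, and less low, at 56 and 34, on arrays 1 and 3 (2.84% and 1.70% of probes below it). F2r ranked 20 and 29 with ANIT in Cy3, but 419 and 214 with ANIT in Cy5. Lrp5 ranked 39 and 42 with ANIT in Cy3, and 592 and 630 with ANIT in Cy5 (30.5% and 32.5% of probes below it). F2r and Lrp5 therefore ranked near the bottom of the array in 1 orientation alone.

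This split followed a dye difference that ran through the whole table. The deposited ratio with ANIT in Cy5 less that with ANIT in Cy3 had a median of -1.25 over the probes and ran from -3.30 to 0.36. It was -0.11 for Fgfr3, -0.55 for Lrp5, -0.60 for Avpr1a and -0.63 for F2r, so that all 4 had a smaller dye difference than the median probe. When the probes were ordered by it and cut into 4 sets of 484, the mean ratios of the set with the most negative differences had an SD of 0.061 and none passed 2-fold. In the next set the SD was 0.21. The third set, which held Avpr1a, F2r and Lrp5, had an SD of 0.45 with 7 probes lower and 15 higher, and the last, which held Fgfr3, had 0.46 with 10 lower and 12 higher. Within their sets Avpr1a was 5th, F2r 7th and Lrp5 13th from the bottom, and Fgfr3 was 3rd.

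**Figure D2:**
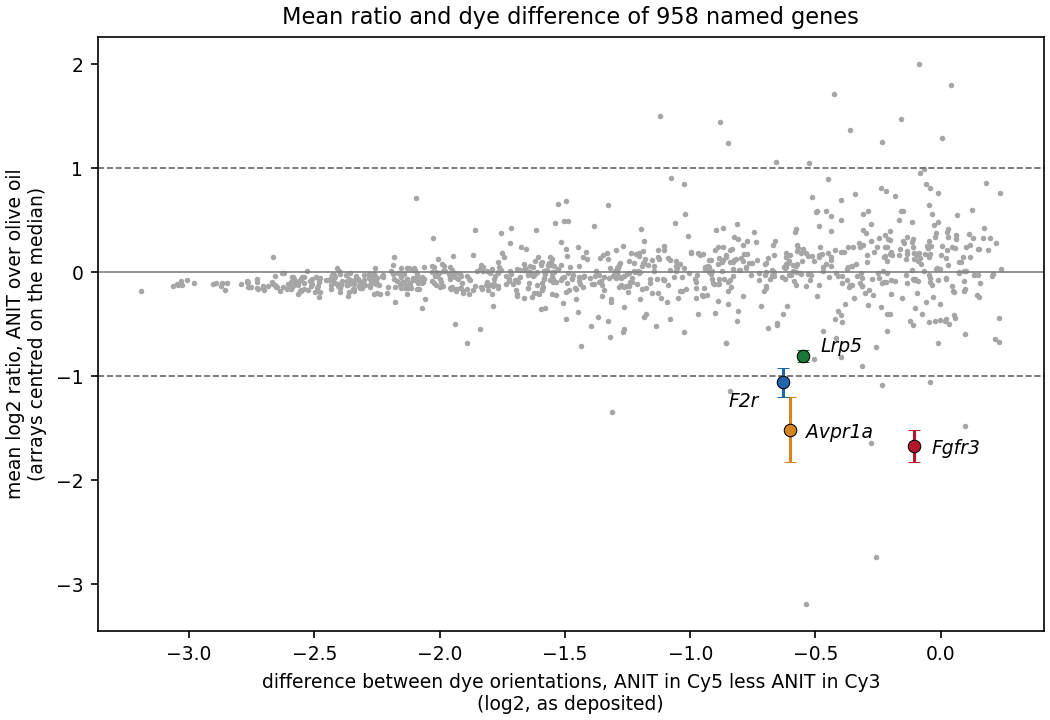
Mean centred log2 ratio of ANIT over olive oil (y axis) against the difference between dye orientations as deposited (x axis, log2) for 958 named genes; grey points are other genes, coloured points the 4 receptors with bars of ± 1 SD within dye orientation, and dashed lines mark 2-fold. The receptors lie at the bottom right, at differences of -0.63 to -0.11, where ratios spread most.

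In an alternative added after the data were seen, each array was centred within these 4 sets, which by construction brings the orientations of a probe together. Fgfr3 then had -1.83, -1.87, -1.75 and -1.61 on arrays 1 to 4, with a mean of -1.76 ± 0.14. Avpr1a had -1.62, -1.93, -1.39 and -1.38 (mean -1.58 ± 0.30). F2r had -0.997, -1.29, -1.12 and -1.07 (mean -1.12 ± 0.13), and Lrp5 had -0.81, -0.9999, -0.73 and -0.94 (mean -0.87 ± 0.050). On that scale the arrays of both orientations gave similar values, and Lrp5 again stayed under 2-fold.

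The genes most like each receptor were found by the root mean square difference of centred log2 ratios over the 4 arrays, which are 4 hybridisations of the same pools and share the dye difference. Tsc22d1, which encodes a leucine zipper protein, was nearest to Fgfr3 (0.11) and to Avpr1a (0.26), with -1.71, -1.41, -1.55 and -1.29 as deposited. The fatty acid desaturase gene Fads2 followed for both, at 0.24 from Fgfr3 and 0.35 from Avpr1a. Pklr, the liver pyruvate kinase, came next for Fgfr3 (0.59) and was also among the nearest to F2r (0.21). The carbonic anhydrase gene Car2 was nearest to F2r (0.19) and stood at 0.44 from Avpr1a, but its value averages probes that disagree (-2.40 and 0.11). Lrp5 was closest to the nucleoside transporter gene Slc28a2 (0.038), which had -0.96, -0.47, -0.91 and -0.39 as deposited, and then to Rab25 (0.089), which encodes a small GTPase of recycling endosomes. Gckr, the regulator of glucokinase, followed for both Lrp5 (0.16) and F2r (0.24).

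Other receptor genes of the array mostly lay near 0. In 4 lists of surface receptors 55 genes were measured, and of the 51 besides these 4 genes 0 were counted as lower and 0 as higher. The rule that chose the 4 took low values, so that gap between them and the rest is no finding. Of all named genes 1.15% were counted as lower and 1.25% as higher, and a count of 0 in 51 is near those shares. The 51 had a median of -0.095, and 48 of them lay between -0.5 and 0.5, against a median of -0.040 and 875 of 958 (91.3%) for all genes. As deposited the median of the 51 was 0.058. Their median dye difference was -1.47, against -0.63 to -0.11 for the 4 receptors. Ratios spread little among probes with strongly negative dye differences, with an SD of 0.061 in the first set above and 0.21 in the next. A value near 0 there does not show that a gene was unaltered. A wider reading of the array's symbols, made after the data were seen, added 41 further receptor genes, of which 0 were counted. Over those 41 the median was -0.065.

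Among the 21 G protein-coupled receptor genes, the one next lowest after Avpr1a and F2r was Adra1b, the alpha-1B adrenergic receptor of hepatocytes, which also signals through Gq (-0.40 ± 0.11). The glucagon receptor gene Gcgr, which raises cyclic AMP in hepatocytes, had -0.031 ± 0.037. The angiotensin, endothelin and further vasopressin, oxytocin and protease-activated receptor genes of the lists were not among the named probes. The highest of the class were Glp1r (0.24 ± 0.060) and the sphingosine phosphate receptor gene S1pr2 (0.33 ± 0.078).

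Of 11 receptor tyrosine kinase genes, Fgfr3 alone was counted, and it had been chosen for its low ratio. The share counted as lower over all named genes was 1.15%, and nothing is read from 1 of 11. Fgfr2, the other FGF receptor gene with a named probe, had 0.046 ± 0.033 from probes at 0.0056 and 0.087. Kdr, a VEGF receptor gene of endothelium, had -0.25 ± 0.20, and the epidermal growth factor receptor gene Egfr had -0.048 ± 0.068. Lrp5 was the only measured member of the LDL receptor list. Among 22 cytokine and other single-pass receptor genes, the interleukin-2 receptor chain gene Il2rb had -0.72 ± 0.073 and the interleukin-1 receptor gene Il1r1 0.56 ± 0.037. Ngfr had -0.71 with a very large SD of 0.99, and the growth hormone receptor gene Ghr had -0.084 ± 0.063.

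**Figure D3:**
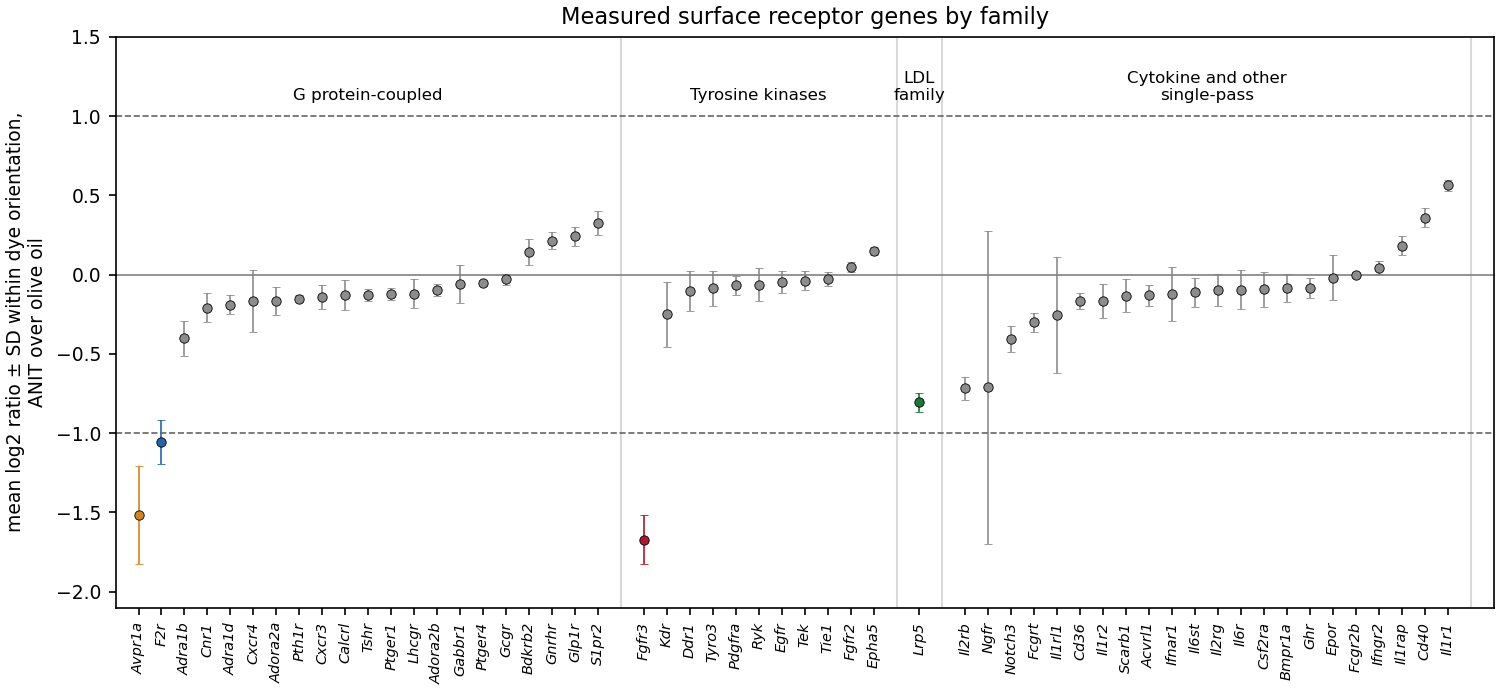
Mean centred log2 ratio of ANIT over olive oil (y axis) for the 55 measured genes of 4 receptor lists (x axis), sorted within each class; bars are ± 1 SD within dye orientation over 4 arrays and dashed lines mark 2-fold. Fgfr3, Avpr1a and F2r (coloured) lie below -1, Lrp5 has -0.81, and the remaining 51 lie between -0.72 and 0.56.

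The signalling partners downstream of the receptors were described from lists of textbook members. With 1.15% of all named genes counted as lower and 1.25% as higher, a count of 0 in any list below is near those shares. The limit given above for ratios near 0 at strongly negative dye differences holds here too. The median dye difference was -1.52 in the Gq list, -0.98 in the FGF list and -1.32 in the Wnt list. For single genes the dye difference was -2.57 (Itpr1), -2.60 (Itpr3), -2.01 (Gsk3b) and -1.87 (Grb2), but -0.84 for Map2k1 and -0.59 for Ctnnb1. Of 22 measured genes of Gq, calcium and thrombin receptor signalling, 0 were counted in either direction, and their median was -0.11, or 0.046 as deposited. The calcium release channel gene Itpr1 had -0.21 ± 0.11, Itpr3 -0.11 ± 0.039, and the diacylglycerol kinase gene Dgkz, the lowest, -0.31 ± 0.14. The protein kinase C genes Prkce and Prkcd had -0.21 ± 0.086 and 0.084 ± 0.066, and Phkg2, a subunit of the phosphorylase kinase that starts glycogen breakdown, had -0.028 ± 0.11. On the supply side of the ligands 4 genes were measured and 0 counted. Fgg, which encodes a chain of the thrombin substrate fibrinogen, had 0.79 ± 0.16, while the tissue factor pathway inhibitor gene Tfpi had -0.21 ± 0.045.

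Of 9 genes of FGF and MAP kinase signalling, 0 were counted, and the median was 0.078, or -0.054 from the arrays with ANIT in Cy3 alone. The MAP kinase kinase genes Map2k2 and Map2k1 had 0.42 ± 0.059 and 0.21 ± 0.068. Dusp6, a phosphatase that feeds back on FGF signalling, had -0.0113 ± 0.026 over probes from -0.16 to 0.18. The adaptor gene Grb2 had -0.17 ± 0.0068.

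Of 15 genes of Wnt and beta-catenin signalling, 0 were counted, and the median was 0.014, or -0.057 relative to the housekeeping genes Hprt1 and Actb (main ratios 0.086 and 0.040) and -0.041 from the arrays with ANIT in Cy3. Ctnnb1, which encodes beta-catenin, had 0.070 ± 0.040, and the kinase gene Gsk3b, of the complex that degrades it, -0.041 ± 0.20. Cdh2, a cadherin gene whose protein binds beta-catenin at cell contacts, had -0.56 ± 0.099 with similar values from its 2 probes (-0.62 and -0.50). Myc, which beta-catenin can activate, had 0.49 ± 0.027.

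Of 9 genes typical of hepatocytes around the central vein, 2 were counted as higher, Cyp1a2 at 2.005 ± 0.025 and Por at 1.05 ± 0.081, and 0 as lower. The share counted as higher over all named genes was 1.25%, and no result about zones is read from 2 of 9. The median of the 9 was 0.010, or -0.061 relative to Hprt1 and Actb, and it lay just below 0 without array 3 or array 4. Aldh1a1, a retinaldehyde dehydrogenase gene, had 0.90 ± 0.16. The probes of Por disagreed, with 2 at 0.055 and 0.088 and 3 from 1.55 to 1.85. Cyp7a1, of bile acid synthesis, had -0.49 ± 0.014 and Cyp2e1 -0.18 ± 0.032. Of 5 genes typical of the region near the portal vein 0 were counted, and the median was -0.015, with 0.38 and -0.80 in the separate dye orientations.

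Markers of liver cell types gave few measured genes. Of the hepatocyte list 5 of 15 were measured, all with means below 0 and a median of -0.20, or -0.048 as deposited. The lowest was Apoa1 at -0.68 ± 0.11. Of stellate cell and fibroblast markers 5 of 21 were measured, with 4 of them below 0 and a median of -0.26, or -0.10 as deposited. They ran from Ngfr at -0.71, with its SD of 0.99, to Vim at 0.19 ± 0.035. Col1a1 had -0.58 ± 0.15 from probes at -0.77 and -0.38. Of endothelial markers 5 of 16 were measured, with a median of -0.038 and a range from -0.25 to -0.0012. Of cholangiocyte markers 5 of 17 had a median of -0.069 and ran from -0.12 to 0.34. As deposited, the endothelial and cholangiocyte medians were 0.11 and 0.084. The hepatocyte median was 0.33 with ANIT in Cy5 and -0.73 with ANIT in Cy3, and that of cholangiocyte markers -0.75 and 0.52. Macrophage, neutrophil and platelet lists had 1, 2 and 1 measured genes, between -0.15 and 0.038. Of these 24 marker values 0 were counted, against 1.15% lower and 1.25% higher over all named genes. The median dye difference was -0.30 for hepatocyte, -1.32 for stellate, -1.47 for endothelial and -2.66 for cholangiocyte markers. Where it was strongly negative, a value near 0 does not show that a gene was unaltered. The part of cell composition in the low values of F2r and the other 3 receptors was not tested.

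**Figure D4:**
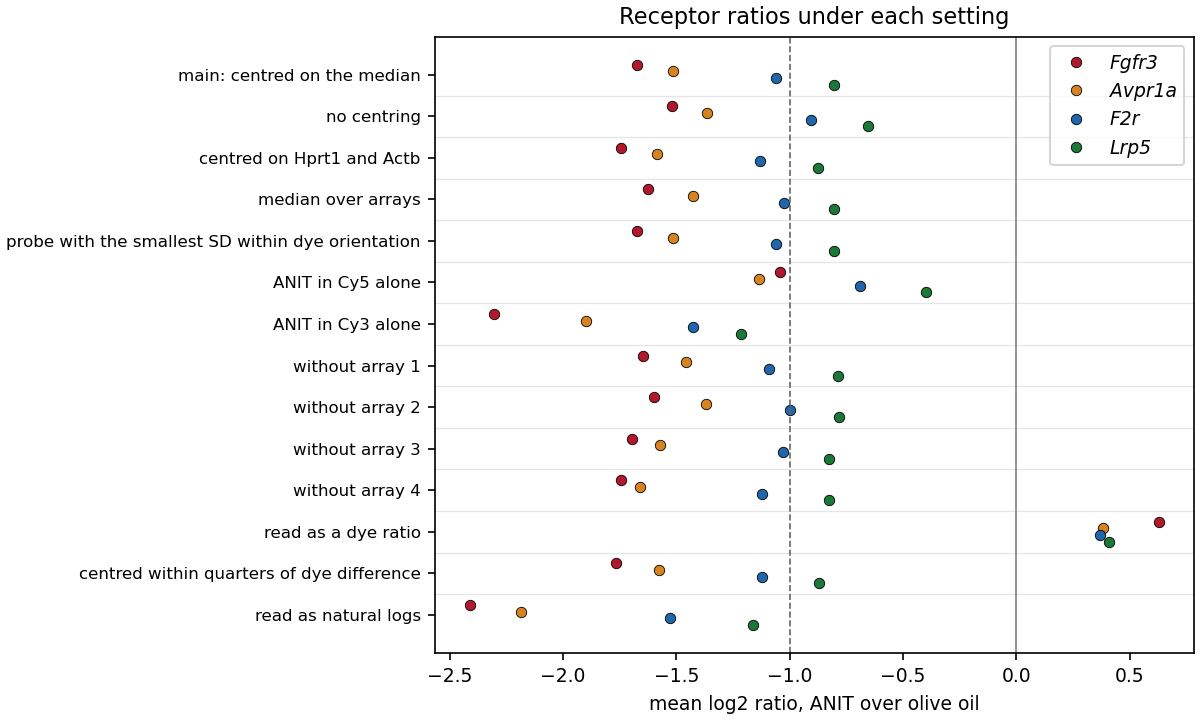
Mean log2 ratio of ANIT over olive oil (x axis) of the 4 receptor genes under the main setting and 13 alternatives (y axis); the dashed line marks 2-fold lower. The 4 genes lie below 0 in every setting shown except the reading as a dye ratio, where they have 0.37 to 0.63.

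The direction of the 4 receptors rests on reading the table as already turned to ANIT over olive oil. If it were a Cy5 over Cy3 ratio, the sign of arrays 2 and 4 would have to be turned before centring. Fgfr3 would then have -1.09 and -0.99 on arrays 1 and 3 against 2.45 and 2.16 on arrays 2 and 4. Its mean would be 0.63, with 0.37 for F2r, 0.38 for Avpr1a and 0.41 for Lrp5, and 0 genes would be counted in either direction. The 4 genes were chosen for low ratios under the reading used here, so their shared sign on all arrays does not bear on which reading holds. Over all probes, as given above, Pearson's r between arrays of opposite orientation was below 0 (-0.383 to -0.370) on the values as deposited. The array medians also changed sign with orientation, from -0.53 on arrays 1 and 3 to 0.85 and 0.83 on arrays 2 and 4. In a table already turned a dye difference changes sign with orientation, and in an unturned table a treatment difference does. Either reading can therefore give such values, and the direction is not settled.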

How the data were processed

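Per the labels' protocols, ANIT (dissolved at 7.5 mg/mL) or olive oil RNA pools were labelled with Cy3 or Cy5 and hybridised to a glass array of 1800 rat genes. The deposited values are log ratios, taken here as log2. How they were background-corrected or normalized, and their base, is not given in the sources used here. Intensities were not analysed here, and the number of arrays limits the precision.

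Of 1936 probes, 1432 had 1 symbol, 19 several and 485 none. Symbols were updated by Entrez identifier through RefSeq genes (GRCr8), which matched 1429 probes. Probes of a gene were averaged. Genes were counted at a mean log2 size of at least 1 with the same sign on all 4 arrays. In simulated data for this comparison of 958 genes, the rule counted 100% of 100 genes at a log2 size of 1.5, 0% of 100 at 0.8 and 0% of 758 unaltered genes. Every simulated gene had the median SD of 0.068, and no difference between pools was simulated. These shares follow from sizes set well away from the limit. They say nothing of genes near the limit or with larger SDs, such as F2r.

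The 4 genes and the 17 lists were chosen with earlier results of these data known. Genes named were the 4 receptors, measured relatives, the 3 genes nearest to each, and list genes that were counted or among the 4 largest by size. Gcgr, Ghr, Egfr, Glp1r, Itpr3, Prkce, Prkcd, Cyp2e1, Phkg2, Dusp6, Ctnnb1, Gsk3b and the genes beside the 2-fold limit or beside Lrp5 in rank were added for their function or rank after values were seen. Python 3.11.15, numpy 2.4.6, pandas 2.3.3 and matplotlib 3.10.9 were used.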

Additional observations from a re-analysis of the deposited data

Results flagged for a closer look

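Among 64 named genes, 1 had an array far from the other 3. Pck1, a periportal gene of gluconeogenesis, had a centred log2 ratio of 0.799 on array 3, against 0.25, 0.17 and 0.16 on arrays 1, 2 and 4. Chance marks about 1 in 20 groups of 4 alike values, and these arrays form dye pairs. None of the 4 receptor genes had such a gap. After centring, their arrays split by dye orientation, and with such a split this rule can hardly mark a single array. Its outcome therefore does not speak for their repeatability.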

How the results depend on the processing

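With each array left out in turn, Fgfr3 ran from -1.75 to -1.60, Avpr1a from -1.66 to -1.37, F2r from -1.12 to -0.996 and Lrp5 from -0.83 to -0.78; leaving out array 2 put F2r under 2-fold. Without centring F2r had -0.91 and Lrp5 -0.65, with 17 genes higher in place of 12 and 7 lower in place of 11. Centred on Hprt1 and Actb, Lrp5 had -0.88. With ANIT in Cy5 alone, Fgfr3, Avpr1a, F2r and Lrp5 had -1.04, -1.13, -0.69 and -0.40, with 59 genes higher and 7 lower. With ANIT in Cy3 alone they had -2.30, -1.90, -1.43 and -1.22, with 6 higher and 36 lower. Read as natural logs they had -2.41, -2.19, -1.53 and -1.16, with 27 higher and 16 lower. Read as a dye ratio they reversed to 0.63, 0.38, 0.37 and 0.41, with 0 genes higher and 0 lower; this follows from turning the sign of 2 arrays. At 1.5-fold, 34 genes were higher and 21 lower. Centring within sets of like dye difference, an alternative chosen after the data were seen, moved Lrp5 to -0.87. The median of the 51 other receptor genes had 0.058 without centring, -0.17 on Hprt1 and Actb, -0.20 and 0.021 in the Cy5 and Cy3 orientations, and -0.037 within the sets. Over all settings the medians of the Gq, FGF and Wnt lists ran from -0.18 to 0.046, -0.054 to 0.23 and -0.057 to 0.17, and the causes were not tested. With 1 probe a gene and no intensities here, neither a dim spot nor a cross-hybridising one could be recognised among the 4 receptors.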
